A study of Mus musculus with 12 samples.

Results

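The genes described here are 9 symbols that mark megakaryocytes and platelets: Vwf, Pecam1, Pf4, Itga2b, Itgb3, Gp9, Gp1bb, Cd9 and Treml1. They were taken from the table of read counts by exact match of the symbol, which gave 9 of its 55376 genes. Of these, 8 had at least 1 count, 7 passed the filter on low counts and could be tested (Vwf, Pecam1, Pf4, Itga2b, Itgb3, Gp9 and Cd9), Treml1 had too few counts for a test and Gp1bb had none. RNA was measured by poly(A) RNA-seq in 12 libraries of cultured mouse bone marrow cells, in 4 groups of 3. All cultures started from c-Kit+/Sca-1+/Lin- progenitors, a fraction rich in blood stem and progenitor cells, and were kept in RPMI medium with SCF at 100 ng/ml and with IL-6 and IL-3, each of them at 20 ng/ml. The empty-vector group carried the retroviral MSCV vector without an insert plus a control shRNA. The fusion group carried NUP98-NSD1, a leukaemia fusion of a nucleoporin with a histone methyltransferase, plus the control shRNA. The 2 remaining groups carried NUP98-NSD1 with shNizp1#1 or shNizp1#2 in a pLKO.1-puro vector. The labels of the libraries with the control shRNA also name plko. Nizp1 is a zinc finger protein that binds NSD1. The transduced cultures were selected with geneticin, and no source used here says how many founder cells, animals or clones each library represents.

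Megakaryocytes are the large bone marrow cells that shed platelets. Their surface carries the fibrinogen receptor (integrin subunits αIIb and β3, from Itga2b and Itgb3) and the von Willebrand factor receptor GPIb-IX-V (built with Gp1bb, Gp9 and further subunits), and their alpha granules store von Willebrand factor and platelet factor 4. Several of these genes are not confined to the lineage: Itga2b and Cd9 are also made by early progenitors and mast cells, Pecam1 by leukocytes and endothelium, and Vwf by endothelium. In bulk RNA, fewer cells of a type and less RNA per cell cannot be told apart.

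Mast cell genes were abundant in these cultures. The summed level of 16 mast cell markers (such as Cpa3, Fcer1a and Kit) was 42409 to 68030 CPM per library (counts scaled to a common library size), and none of the 16 was at 0. Genes of the platelet lineage were present very unequally, and 87 of 111 further ones followed here passed the filter on low counts. The von Willebrand factor receptor genes Gp1ba and Gp5 had 22413 and 4663 counts in all 12 libraries together. The platelet collagen receptor gene Gp6 had 6 counts, the platelet tubulin gene Tubb1 had 8 and the ADP receptor gene P2ry12 had 16, 3 low genes picked after their values were seen. The name of the gene set is therefore used here for the genes and not for the cells. Endothelial markers summed to 18.6 to 64.7 CPM, with 6 of 18 at 0 (Emcn, Cldn5, Sox17, Mmrn2, Clec14a and Ptprb) and 1 count each for Cdh5 and Robo4. The 5 endothelial markers that passed the filter were Tek (820 counts, 5.0 to 28.4 CPM), Eng (623 counts), Egfl7 (244), Kdr (221) and Flt1 (120). Erythroid markers summed to 26.6 to 55.8 CPM. The 14 monocyte markers, none at 0, ran from 326 to 3875 CPM, and the 4 libraries with replicate number 2 held the highest 4 sums (2316 to 3875 CPM). The same 4 libraries held the highest sums of 14 neutrophil markers (1294 to 2507 CPM, against at most 994) and of 8 eosinophil markers (31.8 to 192 CPM, against at most 29.8). The sums of lymphoid markers were low throughout (0.981 to 8.57 CPM) and also highest there.

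The labels number the replicates 1 to 3 in every group, and libraries that share a number deviated together (r between 0.22 and 0.88 in 18 of 18 same-numbered pairs). The design text speaks of independent experiments without tying the numbers to them. Values below come from an edgeR fit in which the replicate number is a block, unless they are called unblocked. No member was called in the unblocked fit in any of the 4 comparisons, by edgeR or by DESeq2.

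The DNA just before the start of transcription is shown for 3 members that differ in level, because promoters of megakaryocyte genes are known to be bound by ETS and GATA factors. Each run is 250 bases, 5′ to 3′ on the strand of the gene, from the RefSeq table of promoters (build GRCm38.p6). Capitals mark the ETS words AGGAAG and CGGAAG, or their complements CTTCCT and CTTCCG. Pf4 was taken from chr5:90772185-90772434 (plus strand), Itga2b from chr11:102469884-102470133 (minus strand) and Gp9 from chr6:87777820-87778069 (plus strand).
Pf4: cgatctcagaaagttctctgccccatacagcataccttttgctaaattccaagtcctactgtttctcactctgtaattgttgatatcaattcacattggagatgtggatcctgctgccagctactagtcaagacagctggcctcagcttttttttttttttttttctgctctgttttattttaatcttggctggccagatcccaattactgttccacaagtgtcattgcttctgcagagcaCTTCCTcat
Itga2b: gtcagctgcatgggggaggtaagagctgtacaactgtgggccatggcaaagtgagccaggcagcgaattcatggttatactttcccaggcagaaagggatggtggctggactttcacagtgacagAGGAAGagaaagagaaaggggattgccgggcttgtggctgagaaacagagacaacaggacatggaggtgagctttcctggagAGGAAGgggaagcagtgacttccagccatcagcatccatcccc
Gp9: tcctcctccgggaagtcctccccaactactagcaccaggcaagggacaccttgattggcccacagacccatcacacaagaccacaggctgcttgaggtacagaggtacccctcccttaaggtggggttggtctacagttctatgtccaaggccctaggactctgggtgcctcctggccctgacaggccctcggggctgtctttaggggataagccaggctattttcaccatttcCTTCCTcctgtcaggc
The table held 6 of the 9 members (not Vwf, Pecam1 and Itgb3). AGGAAG was found, on either strand, in 4 of these 6 windows (Pf4, Itga2b, Gp9 and Cd9), against 29.5% of the 32851 windows of the same length in the table. CGGAAG was found in 1 of 6 (Gp1bb), against 13.6%. The GATA words AGATAA and TGATAA were in none of the 6, against 9.99% and 7.94% of all windows, which says only that these letters are not in these windows. The Itga2b window holds AGGAAG at 2 places, with first bases 43 and 125 bases before the start. The Itga2b window overlaps the exon of a non-coding transcript of the gene in the GENCODE annotation, and the other windows shown lie outside annotated exons. Itga2b, the most abundant member, and Pf4 and Gp9, which were far lower, thus share the word.

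**Figure D1:**
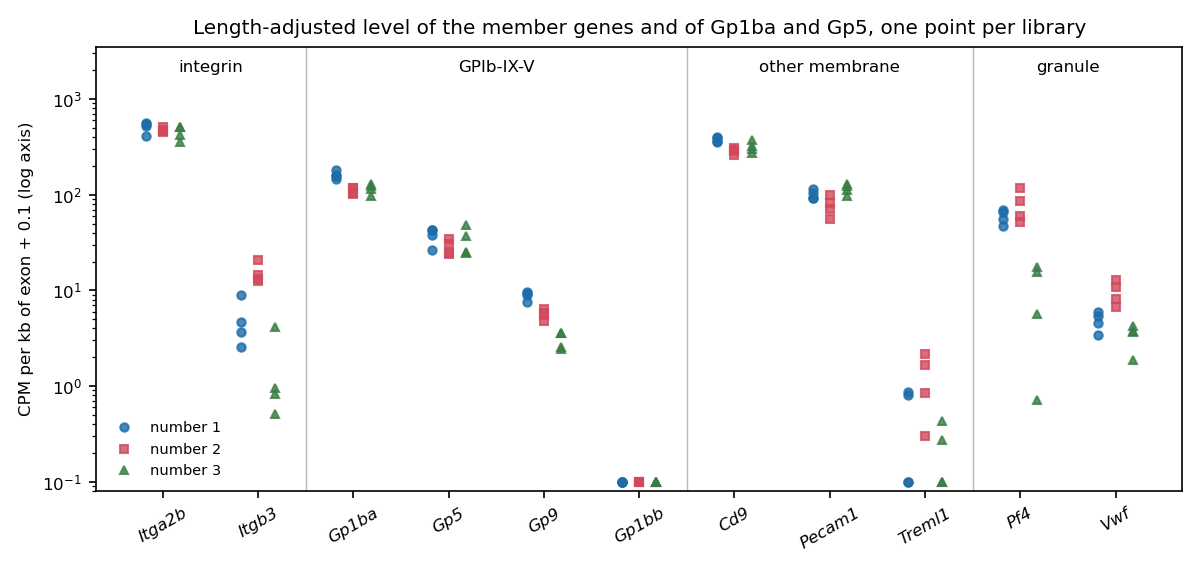
Level of each member, and of the GPIb-IX-V partners Gp1ba and Gp5, in CPM per kb of exon plus 0.1 on a log axis. Each point is 1 library, with colour and shape giving the replicate number; Itga2b and Cd9 stand highest in all 12 libraries, Gp1bb is at 0 in all 12, and Itgb3 and Pf4 spread by replicate number.

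Levels of different genes can be compared only per length, so they are given here as CPM per kb of exon. The mean over the 12 libraries was 478 for Itga2b, which is the percentile 99.1 of the 11994 tested genes, and 328 for Cd9 (percentile 98.6). Pecam1 followed at 97.6 (percentile 94.7) and Pf4 at 49.3 (percentile 87.6). Itgb3 at 7.18, Vwf at 5.85 and Gp9 at 5.75 lay under the median tested gene, at percentiles 40.8, 35.7 and 35.2. Treml1 averaged 0.547 and Gp1bb 0. Itgb3, Vwf and Gp9 overlapped over the libraries (0.407 to 20.9, 1.79 to 12.6 and 2.36 to 9.63), so their order is not set by these data. The ranges of Itga2b (353 to 559) and Cd9 (261 to 403) also overlapped.

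The integrin pair was unequal. Itga2b (chromosome 11, 102453297 to 102469883, minus strand) encodes αIIb, the subunit also known as CD41. It stood at 1920, 1577 and 1758 CPM in empty-vector replicates 1 to 3 and at 1899, 1563 and 1451 CPM in the fusion replicates. With shNizp1#1 it was at 1400, 1645 and 1212 CPM, and with shNizp1#2 at 1789, 1755 and 1761 CPM. All 12 libraries were thus within 1.58-fold, and the 3 shNizp1#1 values lay under all 3 shNizp1#2 values. Itgb3 (chromosome 11, 104608000 to 104670476, plus strand) encodes β3, which pairs with αIIb on platelets and with αv on many other cells. It was at 50.8, 83.8 and 23.5 CPM in the empty-vector libraries and at 14.2, 71.2 and 2.35 CPM with the fusion. The shNizp1#1 libraries had 20.9, 74.8 and 5.0 CPM, and the shNizp1#2 libraries 26.4, 121 and 4.25 CPM. In every group the library numbered 2 was highest and the one numbered 3 lowest, and all groups overlapped. Per kb, Itga2b exceeded Itgb3 by 24.5 to 37.02 times in the libraries numbered 2, by 63.6 to 224 times in those numbered 1 and by 126 to 1037 times in those numbered 3. Itgav, the gene of αv, varied less, from 34.7 to 72.7 CPM. The libraries with the most Itgb3 in each group were also those with the highest monocyte, neutrophil and eosinophil marker sums. The part of these cells was not tested.

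The subunits of GPIb-IX-V were unequal too. Gp9 (chromosome 6, 87778072 to 87779768, plus strand), the small subunit GPIX, was at 8.12, 4.98 and 3.04 CPM with the empty vector and at 6.57, 4.10 and 2.16 CPM with the fusion. It was at 7.85, 4.74 and 2.08 CPM with shNizp1#1 and at 8.48, 5.56 and 3.08 CPM with shNizp1#2. The order was the same in every group, with number 1 highest and number 3 lowest, while the groups overlapped fully. These are low values: Gp9 had 317 counts in the 12 libraries, and 3 counts correspond to between 0.417 and 0.837 CPM. Gp1bb (chromosome 16, 18620317 to 18622403, minus strand), the GPIbβ subunit that is disulphide-linked to GPIbα, had 0 counts in all 12 libraries. Of its exon bases, 92.9% are shared on the same strand with other listed genes, 91.1% with Sept5 alone. Sept5 itself had 12 counts. Reads in shared bases are commonly left unassigned, and how they were treated is not given in the sources used here, so the 0 is a listed value and not evidence that the RNA was absent. The ligand-binding subunit gene Gp1ba, which is not among the 9, was at 261 to 494 CPM, or 96.1 to 182 CPM per kb. Gp5, the gene of the associated GPV subunit, was at 52.0 to 107 CPM, or 23.7 to 48.7 per kb. Gp1ba per kb was thus above Gp5 in all 12 libraries and above Gp9 (2.36 to 9.63) in all 12.

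Cd9 (chromosome 6, 125460266 to 125494791, minus strand) encodes a tetraspanin, a membrane protein that organises integrins and is abundant on platelets. It was at 440, 359 and 369 CPM with the empty vector and at 477, 321 and 338 CPM with the fusion. It was at 495, 380 and 458 CPM with shNizp1#1 and at 453, 354 and 396 CPM with shNizp1#2. The whole range was 1.54-fold, with number 1 highest in 4 of 4 groups. Pecam1 (chromosome 11, 106654217 to 106750628, minus strand) encodes CD31, an immunoglobulin-family receptor of platelets, leukocytes and endothelium. It stood at 378, 295 and 463 CPM with the empty vector and at 380, 233 and 399 CPM with the fusion. With shNizp1#1 it was at 473, 407 and 512 CPM and with shNizp1#2 at 429, 338 and 536 CPM. Every shNizp1#1 library was above every fusion library with the control shRNA. The endothelial marker sums of these libraries were 18.6 to 64.7 CPM, with Tek and Eng the highest on average, and their part in the level of Pecam1 was not tested. Treml1 (chromosome 17, 48359916 to 48367176, plus strand), the gene of a receptor stored in platelet alpha granules, had 41 counts in 8 of 12 libraries. Its highest value was 2.61 CPM (14 counts, fusion replicate 2), and the other fusion libraries had 0.

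Of the granule genes, Pf4 (chromosome 5, 90772435 to 90773383, plus strand) encodes platelet factor 4, a chemokine that binds heparin. It was at 32.8, 42.0 and 0.434 CPM with the empty vector, the last of these from 2 counts, and at 45.8, 36.3 and 3.92 CPM with the fusion. It was at 48.5, 60.3 and 12.4 CPM with shNizp1#1 and at 39.1, 81.5 and 10.7 CPM with shNizp1#2. The 4 libraries numbered 3 were the lowest 4 of the 12. In the same order of groups, the monocyte marker sums of these 4 were 326, 398, 1329 and 667 CPM, and the part of these cells was not tested. In the fusion group the highest monocyte marker sum was in number 2 and the highest Pf4 in number 1. Ppbp, the neighbouring platelet chemokine gene of the same family, had 249 counts and reached 14.1 CPM. Vwf (chromosome 6, 125546774 to 125686679, plus strand) encodes von Willebrand factor, which tethers platelets to the vessel wall through GPIb. It was at 51.4, 79.4 and 41.0 CPM with the empty vector and at 32.6, 64.1 and 17.5 CPM with the fusion. With shNizp1#1 it was at 43.8, 106 and 34.7 CPM and with shNizp1#2 at 56.6, 124 and 35.9 CPM. The library numbered 2 was highest and the one numbered 3 lowest in every group, and within each number the fusion library with the control shRNA was the lowest of the 4. As for Itgb3, the highest value of each group came with its highest monocyte, neutrophil and eosinophil marker sums, and the part of these cells was not tested. Cd9 and Vwf lie on the same chromosome, 51.982 kb apart, with no listed gene between them.

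**Figure D2:**
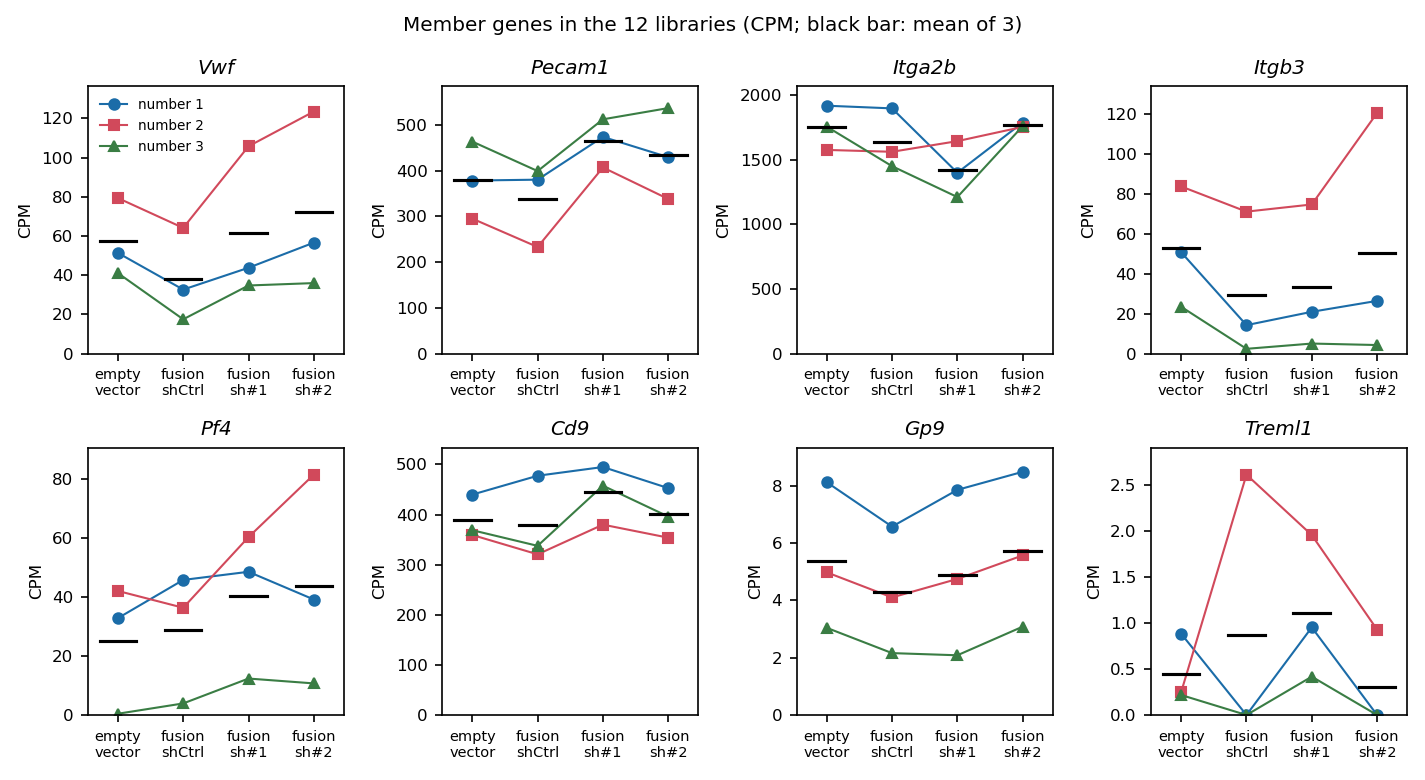
CPM of 8 members in the 4 groups; each point is 1 library, lines join libraries with the same replicate number and black bars are means of 3. In each of the 3 numbers Vwf is lower with the fusion than with the empty vector and is higher again with both shRNAs, while Itgb3, Pf4 and Gp9 differ more between numbers than between groups.

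The replicate number held most of the spread of 6 of the 7 tested members. It accounted for 92.4% of the variance of log2(CPM + 1) for Gp9, 79.8% for Itgb3, 76.7% for Pf4, 73.5% for Vwf, 68.7% for Cd9 and 59.4% for Pecam1, against a median of 48.7% over all tested genes. For Itga2b it accounted for 16.5%, and the group for 48.4%, against a median of 20.6% for the group over all tested genes. The group share of Pecam1 was 33.2%, of Vwf 21.8% and of Cd9 20.3%. For Pf4 and Itgb3 it was 12.8% each, and for Gp9 it was 6.30%. The members therefore did not vary as 1 unit: Itga2b was nearly level across the numbers, while Gp9, Itgb3 and Pf4 followed them.

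**Figure D3:**
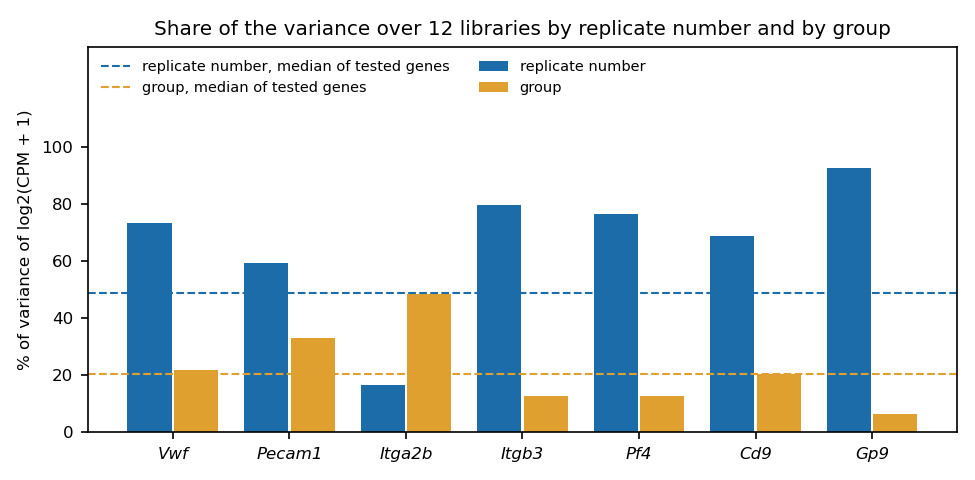
Share of the variance of log2(CPM + 1) over the 12 libraries that lies between replicate numbers (blue) and between groups (orange) for the 7 tested members. Dashed lines are the medians of the 11994 tested genes; Itga2b is the one member with a larger share for the group (48.4%) than for the number (16.5%).

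The comparison of the fusion with the empty vector asks how NUP98-NSD1 changed these genes. Vwf was lower with the fusion in 3 of 3 same-numbered pairs, from 57.3 ± 19.8 to 38.1 ± 23.8 CPM (mean ± SD, n = 3 each), but did not pass the adjusted threshold of 0.05. Its log2 fold change was -0.71 (SE 0.16) with an unadjusted p of 5.1e-04 and an adjusted p of 0.105 in edgeR. Itgb3 was lower in 3 of 3 pairs as well, with a log2 fold change of -1.50 (SE 0.54) and an adjusted p of 0.403. Means were 52.7 ± 30.2 and 29.3 ± 36.8 CPM, and the 95% interval of the change, -2.79 to -0.22, shows how loosely it was measured. Itga2b (-0.10, SE 0.11) and Gp9 (-0.34, SE 0.27) were also lower in 3 of 3 pairs, so that 4 of 7 members were lower in every pair against 16.3% of all tested genes. For Itga2b, 2 of the 3 pairs barely differed (log2 ratios of CPM + 1 of -0.016 and -0.013). Gp9 rested on 11 to 46 counts per library. Pecam1 (-0.18, SE 0.10) and Cd9 (-0.05, SE 0.09) were lower in 2 of 3 pairs and Pf4 (0.29, SE 0.50) was higher in 2 of 3. No member was called, with or without the block, where 0.275% of tested genes were called with it and 0.00834% without it. With the block, 2 of 7 members (Vwf and Itgb3) had an unadjusted p under 0.05, against 11% of tested genes. Without the block 0 did, against 2.67%. The members' median log2 fold change was -0.18, and that of all tested genes was within 0.01 of 0. Stem and progenitor marker sums were 1512, 1447 and 1337 CPM with the empty vector and 1923, 1606 and 2336 CPM with the fusion, higher in 3 of 3 pairs, and 12 of 14 neutrophil markers were above 0, against 49.8% of tested genes. Mast cell marker sums were lower in 3 of 3 pairs, at 49352 to 68030 and 45325 to 62478 CPM. No gene of any marker list was called, and the part of these cells was not tested. Empty-vector replicate 2 bears on both leading values: without it, Vwf changed by -0.94 (adjusted p = 0.0048) and Itgb3 by -2.24 (adjusted p = 0.0122), and both passed. The call on Vwf also depended on the tool, since DESeq2 with the block called it (-0.72, adjusted p = 0.0312).

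The knockdown comparisons ask which genes depend on Nizp1 in fusion cells. Zkscan17, the symbol of Nizp1 in the table, fell by 0.93 on the log2 scale with shNizp1#1 (adjusted p = 0.00198) and by 1.25 with shNizp1#2 (adjusted p = 2.90e-04). The 2 knockdowns share the same 3 control libraries, which are also the fusion libraries of the comparison above, so these values are independent neither of each other nor of those of the fusion.

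With shNizp1#1, Vwf and Pecam1 rose. Vwf went from 38.1 ± 23.8 to 61.4 ± 38.7 CPM, higher in 3 of 3 pairs, by 0.70 on the log2 scale (SE 0.16) with an adjusted p of 0.0389. Pecam1 went from 337 ± 90.9 to 464 ± 53.3 CPM, also in 3 of 3 pairs, by 0.49 on the log2 scale (SE 0.10) with an adjusted p of 0.0247. These 2 of 7 members stand against 1.63% of tested genes called with the block. Without the block 0 members were called, and 0% of tested genes. Unblocked, the change of Vwf was 0.68 (SE 0.61) and that of Pecam1 0.46 (SE 0.24), with adjusted p-values of 1.00 for both. An unadjusted p under 0.05 was reached by 3 of 7 members with the block (12.3% of tested genes) and by 0 without it (4%). The third was Cd9, at 0.24 (SE 0.09, adjusted p = 0.25). Pecam1 was the 1 member whose groups did not overlap, higher with the shRNA, as in 3.96% of tested genes. Higher values in all 3 pairs were found for 5 of 7 members (Vwf, Pecam1, Pf4, Itgb3 and Cd9), against 17.2%. Pf4 (0.67, SE 0.49), Itgb3 (0.32, SE 0.55) and Gp9 (0.15, SE 0.28) had adjusted p-values of 0.667, 0.883 and 0.884. Itga2b alone had a negative value, -0.20 (SE 0.11, adjusted p = 0.511). The members' median was 0.32, against a median within 0.01 of 0 over all tested genes. The call on Vwf was lost with RLE scaling (adjusted p = 0.0505) and whichever of the 6 libraries was left out (adjusted p between 0.063 and 0.216). Monocyte marker sums were 1398, 3107 and 398 CPM in the control libraries and 1112, 3722 and 1329 CPM with shNizp1#1, higher in 2 of 3 pairs. Of the other marker lists, 5 of 14 neutrophil markers were called lower (S100a8, S100a9, Camp, Ngp and Ltf), with a median of -1.10 over the 14. The sums of this list were 743, 2507 and 718 CPM in the controls and 553, 1294 and 994 CPM with shNizp1#1. They were lower in numbers 1 and 2 and higher in number 3. The eosinophil granule genes Prg2 and Epx were called lower too, while 3 of the 6 tested eosinophil markers were above 0 (median -0.23). Mast cell marker sums were 62478, 57973 and 45325 CPM in the controls and 54504, 55636 and 42409 CPM with shNizp1#1, lower in 3 of 3 pairs. Gene by gene, however, 9 of the 16 mast cell markers were above 0 (median 0.12). Stem and progenitor marker sums were 1923, 1606 and 2336 CPM in the controls and 1651, 1376 and 2177 CPM with shNizp1#1. These were lower in 3 of 3 pairs too, while 5 of the 10 tested markers were above 0. Endothelial marker sums were 19.1, 64.7 and 35.3 CPM in the controls and 18.6, 29.6 and 31.5 CPM with shNizp1#1, lower in 3 of 3 pairs. The part of all these cell types in the changes of the members was not tested. The call on Pecam1 held without fusion control replicate 1 or shNizp1#1 replicate 3 and was lost without fusion control replicates 2 or 3 or shNizp1#1 replicates 1 or 2 (adjusted p between 0.077 and 0.169).

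With shNizp1#2, Vwf rose. It went from 38.1 ± 23.8 to 72.0 ± 45.8 CPM, higher in 3 of 3 pairs, by 0.91 on the log2 scale (SE 0.15) with an adjusted p of 0.0265. This 1 of 7 members stands against 0.217% of tested genes called with the block. Without the block, where Vwf changed by 0.92 (SE 0.61, adjusted p = 1.00), 0 members and 0.00834% of tested genes were called. Pecam1 was higher in 3 of 3 pairs, at 434 ± 99.4 CPM, by 0.38 on the log2 scale (SE 0.10), with an adjusted p of 0.166. These were the 2 members with an unadjusted p under 0.05, against 11.1% of tested genes, and 0 had one without the block, against 2.38%. Higher values in all 3 pairs were found for 4 of 7 members (Vwf, Pecam1, Itgb3 and Gp9), against 20% of tested genes. Itgb3 stood at 0.75 (SE 0.52), Pf4 at 0.67 (SE 0.48), Gp9 at 0.43 (SE 0.26), Itga2b at 0.12 (SE 0.11) and Cd9 at 0.10 (SE 0.09), with adjusted p-values of 0.578 to 0.741. All 7 were above 0, against 49.6% of tested genes, and their median was 0.43, against a median within 0.01 of 0 over all tested genes. Erythroid marker sums were 46.2, 29.1 and 39.6 CPM in the controls and 55.8, 48.7 and 51.2 CPM with shNizp1#2, higher in 3 of 3 pairs. Endothelial marker sums went from 19.1, 64.7 and 35.3 CPM to 25.3, 44.5 and 39.3 CPM. They were higher in numbers 1 and 3 and lower in number 2. Mast cell marker sums went from 62478, 57973 and 45325 CPM to 58436, 51800 and 43154 CPM, lower in 3 of 3 pairs, and monocyte marker sums from 1398, 3107 and 398 CPM to 1321, 3875 and 667 CPM, higher in 2 of 3. No gene of any marker list was called in this comparison, and the part of these cells was not tested. The call on Vwf held with RLE scaling (adjusted p = 0.0359) and in DESeq2 with the block (adjusted p = 4.91e-04), and was lost whichever of the 6 libraries was left out (adjusted p between 0.091 and 0.285).

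**Figure D4:**
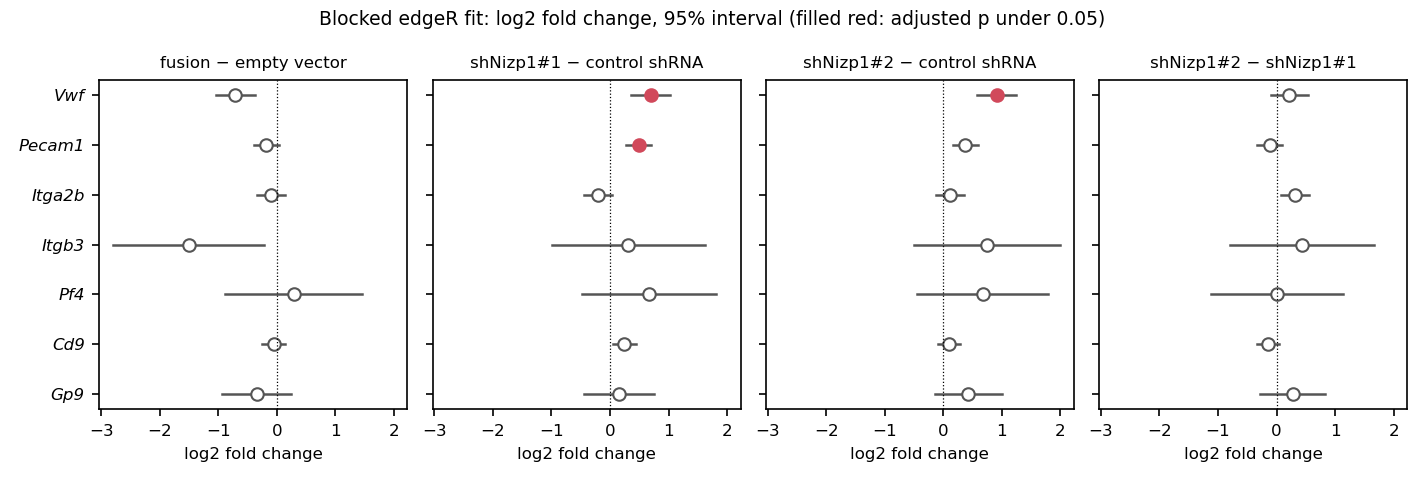
log2 fold change of the 7 tested members in 4 comparisons from the blocked edgeR fit, with 95% intervals. Filled red points have an adjusted p under 0.05: Vwf and Pecam1 with shNizp1#1 (0.70 and 0.49) and Vwf with shNizp1#2 (0.91); the intervals of Itgb3 and Pf4 are the widest.

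Set against each other, the 2 shRNAs did not differ in any member at the adjusted threshold. The difference of shNizp1#2 minus shNizp1#1 was 0.21 for Vwf (95% interval -0.10 to 0.53) and -0.12 for Pecam1 (-0.33 to 0.10), so the call on Pecam1 under one shRNA and not under the other is not a shown difference. Itga2b was higher with shNizp1#2 in 3 of 3 pairs without overlap, at 1768 ± 17.9 against 1419 ± 217 CPM. Its difference was 0.32 (SE 0.11, unadjusted p = 0.0126, adjusted p = 0.176), and it passed without shNizp1#1 replicate 2 (0.48, adjusted p = 0.0428). Groups without overlap in this direction made up 4.87% of tested genes. Higher values in all 3 pairs were found for 3 of 7 members (Vwf, Itga2b and Gp9), against 22.2%. Stem and progenitor marker sums were 1651, 1376 and 2177 CPM with shNizp1#1 and 2037, 1541 and 2596 CPM with shNizp1#2. They were higher in 3 of 3 pairs, and 8 of the 10 tested markers of this list were above 0. Neutrophil markers were also higher with shNizp1#2, in 13 of 14, and the part of these cells was not tested. No member was called with the block (2.37% of tested genes) or without it (0.00834%). With the block 1 member, Itga2b, had an unadjusted p under 0.05 (14.8% of tested genes), and without it 0 (5.08%). DESeq2 called 0 members with or without the block. Cd9 was lower in 3 of 3 pairs (-0.15, SE 0.09, 95% interval -0.34 to 0.04), as were 20.6% of tested genes. Pf4 (0.00, SE 0.48), Itgb3 (0.43, SE 0.52) and Gp9 (0.28, SE 0.26) also had intervals that include 0.

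A further 111 megakaryocyte and platelet genes were followed in 5 lists, and 87 of them passed the filter. Without the block none was called in any comparison. With it, none was called for the fusion or for shNizp1#2 against the control shRNA. For shNizp1#1 against its control 1 of the 87 was called, against 1.63% of all tested genes, and between the shRNAs 4 of the 87 were, against 2.37%. Among 17 tested receptors, Ptger3, a prostaglandin E2 receptor, was the 1 called gene: it was higher with shNizp1#2 than with shNizp1#1 (129 ± 5.86 against 78.2 ± 4.81 CPM, 0.72, adjusted p = 0.0064). The receptors with the highest CPM were F2r, a thrombin receptor, at 880 to 2264 CPM, and the granule tetraspanin gene Cd63 at 941 to 1573 CPM, and neither was called. Among 18 tested granule genes none was called; Srgn, the core protein of granule proteoglycans, ran from 2661 to 4287 CPM and Slc18a2, a vesicular monoamine transporter, from 955 to 1662 CPM.

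Among 23 tested signalling genes, Ptpn6, the phosphatase SHP-1, fell with shNizp1#1 from 300 ± 21.8 to 211 ± 27.3 CPM (-0.51, adjusted p = 0.0136), lower in 3 of 3 pairs. With shNizp1#2 it stood at 237 ± 7.23 CPM (-0.34, adjusted p = 0.175). Pla2g4a, the cytosolic phospholipase that releases arachidonic acid for thromboxane, was higher with shNizp1#2 than with shNizp1#1 (0.36, adjusted p = 0.0290). The highest CPM of this list were those of Tln1, which couples integrins to actin, at 1067 to 1701, and Plek, a substrate of protein kinase C, at 393 to 946. Per kb their means of 153 and 152 CPM lay under those of the adaptor gene Lat (262), Rgs18 (231) and Fermt3 (218). Of 10 tested cytoskeleton genes, Diaph1, an actin-nucleating formin, and Vasp, an actin-bundling protein, were higher with shNizp1#2 than with shNizp1#1 (0.42 with adjusted p = 0.0330, and 0.36 with adjusted p = 0.0307). Pfn1 and Myh9, an actin-monomer binder and a non-muscle myosin, had the highest CPM and were not called. Per kb Pfn1 was also highest, at a mean of 1009 CPM, while Myh9 at 100.5 lay under Gsn (262), Vasp (185) and Wdr1 (140). Between the shRNAs, 9 of these 10 genes had positive values with a median of 0.30, against 14 of 17 receptors with a median of 0.24, and a median over all tested genes within 0.01 of 0 with 49.7% of them above 0. In the same comparison 13 of 14 neutrophil markers were above 0, with a median of 0.93, and 5 were called higher (Lcn2, S100a8, S100a9, Camp and Ngp). The eosinophil gene Epx and Car2, from the erythroid list, were called higher too. Their lists were mixed: 3 of 6 tested eosinophil markers were above 0 (median 0.046), and 1 of 3 tested erythroid markers (median -0.15). The part of these cells was not tested. Of 19 tested transcription factors none was called, and the highest CPM were those of Gata2 (1393 to 2095 CPM) and Tal1 (309 to 572 CPM), factors shared by mast cells and megakaryocytes. These calls rest on few libraries: with 1 library left out, 0 of the 87 genes were called for shNizp1#1 against its control, other than 1 without shNizp1#1 replicate 1. Between the shRNAs, 0 were called without shNizp1#1 replicate 1 or shNizp1#2 replicates 2 or 3, 1 without shNizp1#1 replicate 3 or shNizp1#2 replicate 1, and 4 without shNizp1#1 replicate 2.

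**Figure D5:**
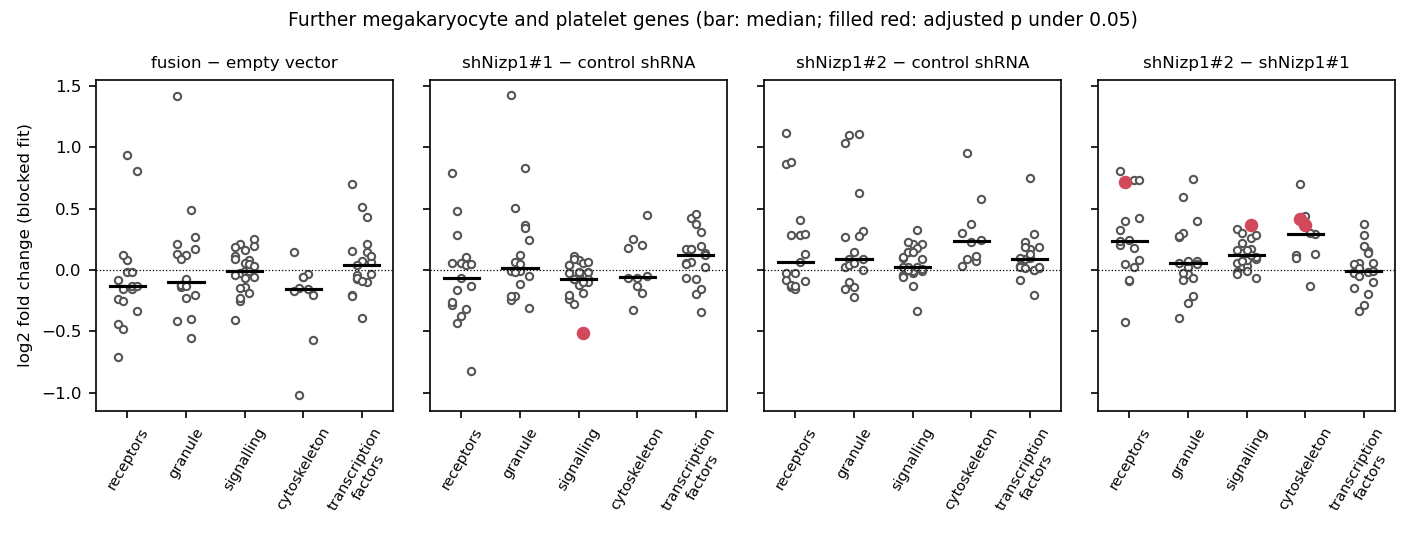
log2 fold change (blocked edgeR fit) of the 87 tested further genes, 1 point per gene, by list and comparison, with the median as a bar. Filled red points have an adjusted p under 0.05: Ptpn6 lower with shNizp1#1, and Ptger3, Pla2g4a, Diaph1 and Vasp higher with shNizp1#2 than with shNizp1#1.

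The members' own correlations changed once the mean of each replicate number was taken off. Over the 12 libraries, which share 3 replicate numbers, Vwf and Itgb3 correlated at r = 0.91 and Vwf and Pecam1 at -0.44. After subtraction these were 0.69 and 0.67. Itga2b and Itgb3, whose proteins form 1 receptor, correlated at 0.36 and after subtraction at 0.41. Among 9733 tested genes with a mean of at least 5 CPM, the 3 most like Vwf over the 12 libraries were Lama5 (r = 0.96), Ahnak (0.95) and Socs3 (0.95), and after subtraction Fyn (0.94), Peg13 (0.94) and Agbl3 (0.93). Among those most like Itga2b were Tmem9 (0.92) and Fbxl17 (0.88), and after subtraction Herc3 (0.96) and Tal1 (0.94). For Pecam1 they were Timm8b (0.97), Trak2 (0.96) and Tulp3 (0.95), and Timm8b stayed first after subtraction (0.96). Those most like Itgb3 were Il10ra (0.97), Sgpl1 (0.97) and Tns1 (0.97), and those most like Pf4 were Fn1 (0.96), Emp1 (0.96) and Egln3 (0.95). Gp9 was most like Adora2b (0.97), Ndfip1 (0.97) and Epm2a (0.97), and Cd9 most like Prdm4 (0.92), Rbmx (0.91) and Pnpla2 (0.90). No gene appears in the lists of 2 members over the 12 libraries. These are descriptions of 12 libraries that share replicate numbers and carry no test.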

How the data were processed

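The authors deposited 1 table of whole-number counts of reads per gene for the 12 libraries, with gene coordinates and length on mm10. The submitters' processing notes name Trimmomatic 0.32, STAR 2.5.3a and featureCounts; strand setting, annotation release and handling of shared bases were not given in the sources used here. Per the labels' protocols, stranded poly(A) libraries were made from 1 µg of RNA and read as single 75 nt reads. Totals were 3586538 to 6842589 counts per library, so 3 counts are 0.417 to 0.837 CPM, which covers counting error only since reads carry no molecular identifiers. CPM are counts scaled to 1000000 by the summed counts of tested genes and the TMM factor.

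The quasi-likelihood test of edgeR 4.0.16 (R 4.3.3, robust) was run on all 12 libraries together, with 1 mean for each group, on the 11994 genes past the low-count filter, with TMM scaling, Benjamini-Hochberg adjustment over all tested genes and a threshold of 0.05. This model left out the replicate number, which no label ties to an experiment. Residuals showed that the number pairs the libraries: the 18 same-numbered pairs correlated at 0.223 to 0.877 (median 0.738), and differently numbered pairs had a median of -0.196. The negative median is not separate support, because residuals from the group means cancel out within each group. The correlations alone, and no calls, decided this, and blocked values are therefore printed. SEs were derived from the F statistic. Alternatives were RLE scaling, no filter, DESeq2 1.42.0, leaving out libraries, and the block with each. The fit was also run on counts simulated with the blocked fit's own spread, which cannot test whether that spread suits these libraries. No replicate pair agreed within sampling noise. No source names animals, so the p-values reflect only spread among libraries.

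The members and all lists were chosen with earlier results of these data known. Each member is described. Of the further genes, called ones (up to 4 per list and comparison) and the 2 most highly expressed of each list are named, and the other genes named are partners, near-zero lineage genes, cell type markers, genes higher per kb, or those most alike. Some genes that the rules would name are left out. Promoter windows hold 250 bases before the start. Likeness is Pearson's r of log2(CPM + 1).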

Additional observations from a re-analysis of the deposited data

How the results depend on the processing

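The pairing of libraries by replicate number and, with it, the low-count filter changed the counts of calls. In the order fusion, shNizp1#1, shNizp1#2 and shNizp1#2 minus shNizp1#1, edgeR called 1, 0, 1 and 1 of all tested genes without the block and 33, 195, 26 and 284 with it. Called members numbered 0, 0, 0 and 0 without it and 0, 2, 1 and 0 with it. In the same order, RLE scaling with the block gave 32, 196, 28 and 300 genes and 0, 1, 1 and 0 members. The block without the low-count filter gave 451, 512, 369 and 626 genes and 2, 3, 4 and 1 members, and the unblocked fit without the filter gave 1, 1, 2 and 2 genes. DESeq2 called 8, 50, 7 and 73 genes and 0 members, and with the block 76, 237, 78 and 361 genes and 1, 2, 1 and 0 members. With the block and all libraries of number 1, 2 or 3 left out, the fusion gave 0, 93 and 2 genes, shNizp1#1 gave 38, 90 and 11, shNizp1#2 gave 4, 23 and 4, and the shRNAs against each other 31, 167 and 12. Members then called were 2 for the fusion (Vwf and Itgb3) and 1 between the shRNAs (Itga2b), both without number 2, and 0 otherwise. Leaving out 1 library at a time gave 4 to 169 blocked calls for the fusion, 47 to 92 for shNizp1#1, 4 to 9 for shNizp1#2 and 72 to 144 between the shRNAs, with 0 to 2, 0 to 1, 0 and 0 to 1 members, and 0 to 1 unblocked calls with 0 members. Fits that leave libraries out also hold fewer of them, and the cause of these differences was not tested.

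Changes of Vwf and Pecam1 against the control shRNA kept their sign under every alternative run. Values of uncalled members turned sign when 1 library was left out, over both fits. For the fusion the ranges were -0.24 to 0.065 for Cd9, -0.78 to 0.089 for Gp9, -0.32 to 0.039 for Pecam1 and -0.39 to 0.77 for Pf4. For shNizp1#1 they were -0.32 to 0.62 for Gp9, -1.21 to 2.00 for Itgb3 and -0.035 to 1.09 for Pf4. For shNizp1#2 they were -0.023 to 0.28 for Cd9, -0.96 to 2.62 for Itgb3 and -0.21 to 1.12 for Pf4. Between the shRNAs they were -0.15 to 0.75 for Gp9, -1.15 to 1.99 for Itgb3, -0.28 to 0.038 for Pecam1, -0.71 to 0.59 for Pf4 and -0.43 to 0.88 for Vwf. Pf4 also turned there in DESeq2 with the block (-0.030) and with the block and number 2 left out (-0.29). Depth limits Gp9, Treml1 and the lowest Pf4 and Itgb3 libraries, whose values rest on few counts.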
